A study of Sorghum bicolor with 24 samples.

Results

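The entry of the phenylpropanoid pathway was described in the stem of Sorghum bicolor cv. Wray through 10 genes, chosen by identifier from the 34117 genes of the count table. Of these, 8 were listed as phenylalanine ammonia-lyase (PAL) genes. They were 5 genes with consecutive identifiers on chromosome 4, a pair on chromosome 6 and 1 gene on chromosome 1. The other 2, Sobic.002G126600 and Sobic.003G337400, were listed as cinnamate 4-hydroxylase (C4H) genes. The table carries identifiers without product names, so the family of each gene was taken from this list and was not checked against an annotation here.

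PAL removes ammonia from phenylalanine and yields cinnamic acid, and C4H, a cytochrome P450 of the endoplasmic reticulum, hydroxylates cinnamic acid to p-coumaric acid. Later products of the pathway include lignin in thickened walls, hydroxycinnamates bound to grass cell walls, flavonoids and soluble phenolics. In grass stems, lignin is laid down mainly in xylem, in the fibre sheaths of vascular bundles and below the epidermis, while pith parenchyma walls stay thin for longer. PAL is encoded by a gene family in plants, and some grass PAL enzymes also accept tyrosine, which yields p-coumaric acid without C4H.

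The study compared 5 cell types cut out of stem cryosections by laser capture microdissection with bulk tissue. The captured types were xylem sclerenchyma, vascular parenchyma, phloem, pith parenchyma and epidermis, and bulk stem tissue that skipped the laser step, named whole stem here, was the sixth group. All 6 groups came from greenhouse plants of this single cultivar, vegetative at 74 days of age and grown under 14 h days, and each group had 4 libraries labelled replicate 1 to 4. Tissue came from phytomer 8 of 4 plants, the youngest internode that had finished elongating. The labels do not say which plant gave which replicate number, or how many captured cells were pooled in a library. The collection protocol names xylem parenchyma where the sample labels name vascular parenchyma. The labelled cell types were not checked against marker genes here, since the identifiers were paired with no products.

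Total counts ranged from 2769555 to 38880291 over the 20 captured libraries and from 16189208 to 29605470 over the 4 whole stem libraries. CPM is a count scaled to the library total, with no correction for gene length, so it is compared between libraries and not between genes. Genes above 1 CPM numbered 18421 to 18799 per whole stem library. Epidermis replicates 1 and 2 and phloem replicate 3 stood apart with 10439, 10911 and 11021 such genes, against 13378 to 17125 in the other 17 captured libraries. A floor of 3 counts per library corresponded to a group mean of 0.291 CPM in xylem sclerenchyma, 0.167 in vascular parenchyma, 0.528 in phloem, 0.277 in pith parenchyma, 0.19 in epidermis and 0.129 in whole stem. Floors cover counting error only.

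Of the 10 genes, 7 lay well above this floor in most libraries. The other 3, all PAL genes, lay near or below it in most libraries. Sobic.004G220500 of the chromosome 4 group had 0.68 ± 0.53 CPM in xylem sclerenchyma, 0.42 ± 0.30 in vascular parenchyma and 0 in all libraries of pith parenchyma and epidermis (SD, n = 4 each). Sobic.001G160500 did not pass 1.08 CPM in any library. Sobic.006G148900, the partner of the chromosome 6 pair, was highest at 9.83 CPM in epidermis replicate 4 and 7.80 CPM in pith parenchyma replicate 2, with at most 3.11 CPM elsewhere. Sobic.004G220500 and Sobic.001G160500 did not pass the filter on low counts and were not tested over the captured types. Sobic.006G148900 was tested there and not against whole stem.

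Whether a gene's level depended on the cell type was asked over the 20 captured libraries with edgeR's quasi-likelihood F test, with p-values adjusted by Benjamini-Hochberg over 19502 genes. Of the 8 genes tested, 7 differed across the types at an adjusted p under 0.05, beside 16% of all genes tested. The exception was Sobic.006G148900, at an adjusted p of 0.648 in this edgeR test. By highest mean alone, the 7 genes fell into 3 arrangements, though the highest type was not always called above the others. Sobic.006G148800, Sobic.004G220300 and Sobic.003G337400 were highest in xylem sclerenchyma, Sobic.004G220600 and Sobic.004G220700 in vascular parenchyma, and Sobic.004G220400 and Sobic.002G126600 in epidermis.

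**Figure D1:**
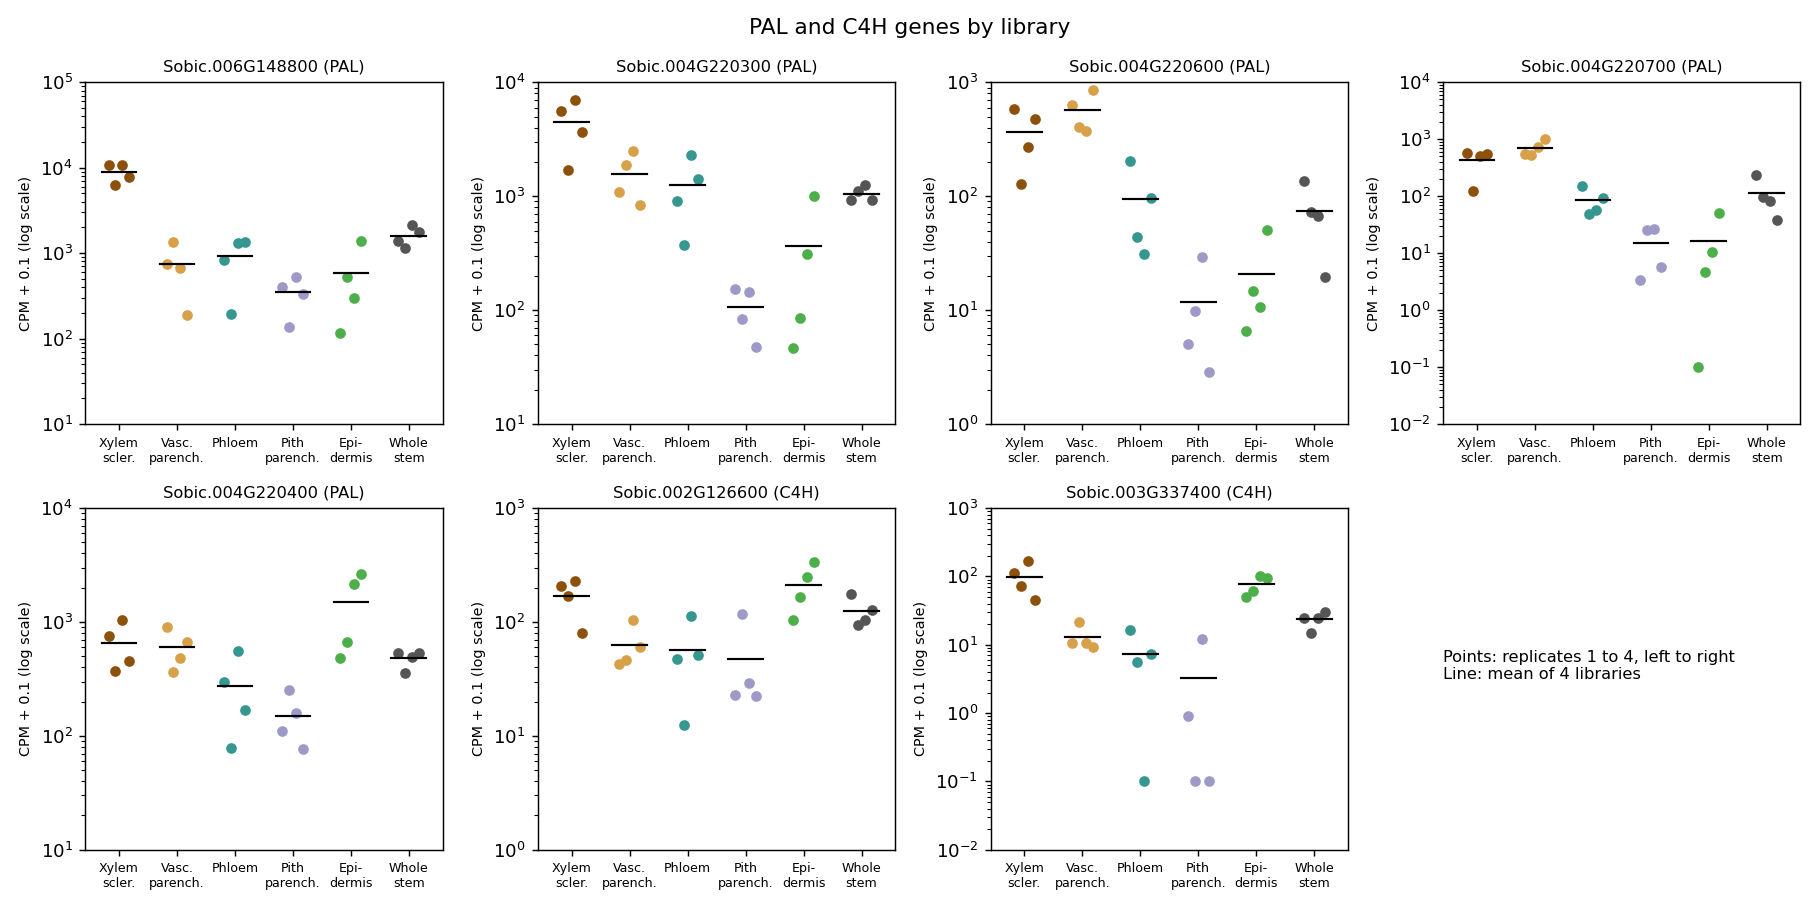
CPM plus 0.1 on a log axis for the 7 PAL and C4H genes above the floor, in each of the 24 libraries; points are replicates 1 to 4 from left to right and lines are means of 4 libraries. All xylem sclerenchyma points of Sobic.006G148800 lie above every other captured library, while Sobic.004G220400 and both C4H genes are high in epidermis as well.

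Sobic.006G148800, a PAL gene, took the most counts of the 10 genes in xylem sclerenchyma. It had 10799, 6265, 10719.6 and 7788 CPM in xylem sclerenchyma replicates 1 to 4. In vascular parenchyma it had 752, 1363, 671 and 190 CPM, and in phloem 832, 194, 1303 and 1353 CPM. Pith parenchyma held 404, 136, 526 and 328 CPM, epidermis 117, 532, 302 and 1404 CPM, and whole stem 1379, 1138, 2155 and 1768 CPM. Each xylem sclerenchyma library thus lay above all 20 other libraries, while the other captured types overlapped one another. This gene alone averaged 8893 ± 2243 CPM in xylem sclerenchyma (SD, n = 4). The difference across the types had an adjusted p of 0.000138 in edgeR's F test and passed without each of the 20 libraries in turn.

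Between types, Sobic.006G148800 was 26.9-fold higher in xylem sclerenchyma than in pith parenchyma (log2 difference 4.75, SE 0.78, edgeR adjusted p = 0.00186). It was 15.1-fold higher than in epidermis (3.91, SE 0.75, edgeR adjusted p = 0.00414). Both calls held in all 20 omissions of 1 library, and without epidermis replicate 4 the log2 difference from epidermis was 4.88. Against phloem the log2 difference was 3.37 (SE 0.73, edgeR adjusted p = 0.0411), and this call held in 7 of the 20 omissions, those of xylem sclerenchyma replicate 2, vascular parenchyma replicates 2 and 4, pith parenchyma replicate 2 and epidermis replicates 1, 2 and 4. Against vascular parenchyma the log2 difference of 3.55 (SE 0.73) missed the threshold at an edgeR adjusted p of 0.0673, and DESeq2 and limma voom with quality weights called it.

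Sobic.004G220300, a PAL gene of the chromosome 4 group, also had its highest mean in xylem sclerenchyma. Its values there were 5546, 1694, 7003 and 3646 CPM. Vascular parenchyma had 1089, 1871, 2477 and 831 CPM and phloem 899, 373, 2289.7 and 1426 CPM. The 3 vascular types overlapped in this gene, with phloem replicate 3 and vascular parenchyma replicates 2 and 3 above the lowest xylem sclerenchyma library. Pith parenchyma had 152, 84.3, 144 and 47.0 CPM, epidermis 46.2, 85.6, 308 and 1014 CPM, and whole stem 918, 1108, 1265 and 933 CPM. Pith parenchyma thus lay below all vascular libraries, and epidermis ranged widely, with replicates 1 and 2 at the low end.

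Across the types Sobic.004G220300 differed at an adjusted p of 0.00136 in edgeR's F test, and in all 20 omissions. It was 45.5-fold higher in xylem sclerenchyma than in pith parenchyma (log2 difference 5.51, SE 0.91, edgeR adjusted p = 0.00224) and 12.2-fold higher than in epidermis (3.61, SE 0.83, edgeR adjusted p = 0.0140). Without epidermis replicate 4 the log2 difference from epidermis was 4.99. It also rose against pith parenchyma in vascular parenchyma (log2 difference 4.02, SE 0.85, edgeR adjusted p = 0.00765), a call that limma voom did not make. In phloem the log2 difference from pith parenchyma was 3.56 (SE 0.83, edgeR adjusted p = 0.0165), a call lost without pith parenchyma replicate 2 or 4 and not made by limma voom. Among the vascular types its 3 log2 differences, 1.48, 1.95 and 0.47, had edgeR adjusted p-values of 0.567, 0.380 and 1.

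Sobic.004G220600 and Sobic.004G220700, neighbouring PAL genes of the chromosome 4 group, had their highest means in vascular parenchyma. Sobic.004G220600 had 637, 408, 376 and 848 CPM in vascular parenchyma. Xylem sclerenchyma held 578, 128, 268 and 479 CPM of it, phloem 203, 44.0, 30.9 and 97.1 CPM, and pith parenchyma 4.90, 9.75, 28.9 and 2.76 CPM. Epidermis held 6.49, 14.6, 10.6 and 50.9 CPM and whole stem 135, 72.2, 66.9 and 19.6 CPM. All vascular parenchyma libraries lay above all phloem, pith parenchyma, epidermis and whole stem libraries, and overlapped with xylem sclerenchyma.

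Sobic.004G220700 was distributed alike. Vascular parenchyma had 554, 530.4, 733 and 1004 CPM of it, xylem sclerenchyma 584, 122, 499 and 545 CPM, and phloem 149.6, 47.9, 57.8 and 92.4 CPM. Pith parenchyma had 3.22, 25.2, 26.1 and 5.66 CPM, epidermis 0, 4.66, 10.2 and 50.1 CPM, and whole stem 234, 97.4, 83.8 and 37.7 CPM. As with its neighbour, vascular parenchyma overlapped with xylem sclerenchyma alone. Over the 20 captured libraries the log2 CPM of these 2 genes had a Pearson correlation of 0.905 and a Spearman correlation of 0.959, given as a description, since libraries share a type and a depth, and close copies share reads.

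In edgeR's F test across the types the adjusted p was 9.91e-05 for Sobic.004G220600 and 0.00263 for Sobic.004G220700, and both passed in all 20 omissions. Vascular parenchyma exceeded pith parenchyma 55.4-fold in Sobic.004G220600 (log2 difference 5.79, SE 0.88, edgeR adjusted p = 0.000409) and 53.4-fold in Sobic.004G220700 (5.74, SE 1.23, edgeR adjusted p = 0.00877). It exceeded epidermis 28.4-fold in Sobic.004G220600 (4.83, SE 0.84, edgeR adjusted p = 0.000996) and 44.3-fold in Sobic.004G220700 (5.47, SE 1.21, edgeR adjusted p = 0.00738). These 4 calls held in every omission of 1 library. The size depended on single libraries, since without epidermis replicate 4 the log2 differences from epidermis were 5.92 and 7.26, and without pith parenchyma replicate 3 that of Sobic.004G220600 from pith parenchyma was 6.80.

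Xylem sclerenchyma also exceeded pith parenchyma and epidermis in both of these genes. For Sobic.004G220600 the log2 differences were 5.05 (SE 0.85, edgeR adjusted p = 0.00193) and 4.09 (SE 0.81, edgeR adjusted p = 0.00462), in all 20 omissions. The second of these was not called without epidermis replicates 1 and 2 and phloem replicate 3 together. For Sobic.004G220700 they were 4.98 (SE 1.18, edgeR adjusted p = 0.0275) and 4.72 (SE 1.17, edgeR adjusted p = 0.0225). The first of these was lost without xylem sclerenchyma replicate 1, 3 or 4 or any pith parenchyma library, the second without epidermis replicate 2 or 3. Without epidermis replicate 4 the differences from epidermis were 5.14 for Sobic.004G220600 and 6.47 for Sobic.004G220700, and without pith parenchyma replicate 3 that of Sobic.004G220600 from pith parenchyma was 6.06. Between xylem sclerenchyma and vascular parenchyma the log2 differences of -0.74 (SE 0.72) and -0.76 (SE 1.005) did not pass edgeR's test, at edgeR adjusted p-values of 0.981 and 1. Phloem exceeded pith parenchyma in Sobic.004G220600 (log2 difference 3.03, SE 0.77, edgeR adjusted p = 0.0234), a call lost without phloem replicate 1 or pith parenchyma replicate 1, 2 or 4 and not made by limma voom. That difference was 2.29 without phloem replicate 1 and 4.04 without pith parenchyma replicate 3.

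Sobic.004G220400, also a PAL gene of the chromosome 4 group, had its highest mean in epidermis. Epidermis had 486, 668, 2173 and 2635 CPM, and the 2 lower values were those of replicates 1 and 2, the libraries with few detected genes. Xylem sclerenchyma had 749, 369, 1038 and 453 CPM, vascular parenchyma 905, 365, 482 and 663 CPM, and phloem 295, 77.9, 562 and 168 CPM. Pith parenchyma had 110.4, 255, 159 and 76.1 CPM and whole stem 529, 359, 490.2 and 538 CPM. Epidermis replicates 3 and 4 lay above all other libraries of the study, while replicates 1 and 2 lay within the range of the vascular types.

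In edgeR's F test Sobic.004G220400 differed across the types at an adjusted p of 0.00325, in all 20 omissions. Pith parenchyma was 11.1-fold lower than epidermis (log2 difference -3.47, SE 0.65, edgeR adjusted p = 0.00394), in all 20 omissions. Phloem was 5.84-fold lower than epidermis (-2.55, SE 0.62, edgeR adjusted p = 0.0137), a call lost without phloem replicate 4 or epidermis replicate 3 or 4. Xylem sclerenchyma and vascular parenchyma exceeded pith parenchyma by log2 differences of 2.26 (SE 0.62, edgeR adjusted p = 0.0497) and 2.19 (SE 0.61, edgeR adjusted p = 0.0336). The first held in 8 of the 20 omissions, those of xylem sclerenchyma replicate 2, phloem replicates 2, 3 and 4 and the 4 epidermis libraries, and was lost with the set of replicates (1 and 2 or 3 and 4) as a covariate. The second was lost without vascular parenchyma replicate 1, 3 or 4 or pith parenchyma replicate 1, 3 or 4. Against epidermis, xylem sclerenchyma and vascular parenchyma had log2 differences of -1.20 (SE 0.60) and -1.27 (SE 0.60), with edgeR adjusted p-values of 0.264 and 0.186.

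Sobic.002G126600, the C4H gene with more counts in every library, had its highest means in epidermis and xylem sclerenchyma. Xylem sclerenchyma had 208, 168, 228 and 79.6 CPM, vascular parenchyma 42.4, 46.5, 102.98 and 59.8 CPM, and phloem 47.7, 12.3, 114 and 51.5 CPM. Pith parenchyma had 22.6, 116, 29.1 and 22.3 CPM, epidermis 104, 166, 246 and 337 CPM, and whole stem 177, 94.0, 104 and 127 CPM. Xylem sclerenchyma and epidermis overlapped, and pith parenchyma replicate 2 and phloem replicate 3 lay within the range of both. The gene differed across the types at an edgeR adjusted p of 0.0224, lost without epidermis replicate 3 or 4. No pair of types was called for it in the main edgeR fit, with all libraries and the filter on low counts. The smallest edgeR adjusted p there was 0.0509, for phloem minus epidermis (log2 difference -2.02, SE 0.63). With no filter on low counts, edgeR called pith parenchyma minus epidermis. DESeq2 and limma voom both called phloem and pith parenchyma lower than epidermis, as did edgeR without epidermis replicates 1 and 2 and phloem replicate 3.

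Sobic.003G337400, the second C4H gene, had higher values in the same 2 types. Xylem sclerenchyma had 112, 71.3, 169 and 44.8 CPM and epidermis 49.9, 60.7, 101 and 94.8 CPM. Vascular parenchyma had 10.6, 21.1, 10.5 and 9.32 CPM, phloem 16.3, 5.47, 0 and 7.16 CPM, and pith parenchyma 0.80, 0, 12 and 0 CPM. Whole stem had 24.8, 14.6, 24.3 and 30.1 CPM. Every library of xylem sclerenchyma and epidermis lay above every library of the other types and of whole stem.

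For Sobic.003G337400 the edgeR adjusted p across the types was 0.0440. It stayed under 0.05 in 6 of the 20 omissions, those of xylem sclerenchyma replicate 4, phloem replicates 1 and 3 and pith parenchyma replicates 2, 3 and 4, and was lost with the set of replicates as a covariate. No pair of types was called in the main edgeR fit. The largest log2 difference, 5.11 (SE 1.56) for xylem sclerenchyma minus pith parenchyma, had an edgeR adjusted p of 0.0804. DESeq2 and limma voom with quality weights called that pair for both C4H genes, and pith parenchyma minus epidermis for Sobic.003G337400. For Sobic.003G337400 limma voom also called xylem sclerenchyma minus phloem, vascular parenchyma and phloem minus pith parenchyma, and vascular parenchyma and phloem minus epidermis.

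**Figure D2:**
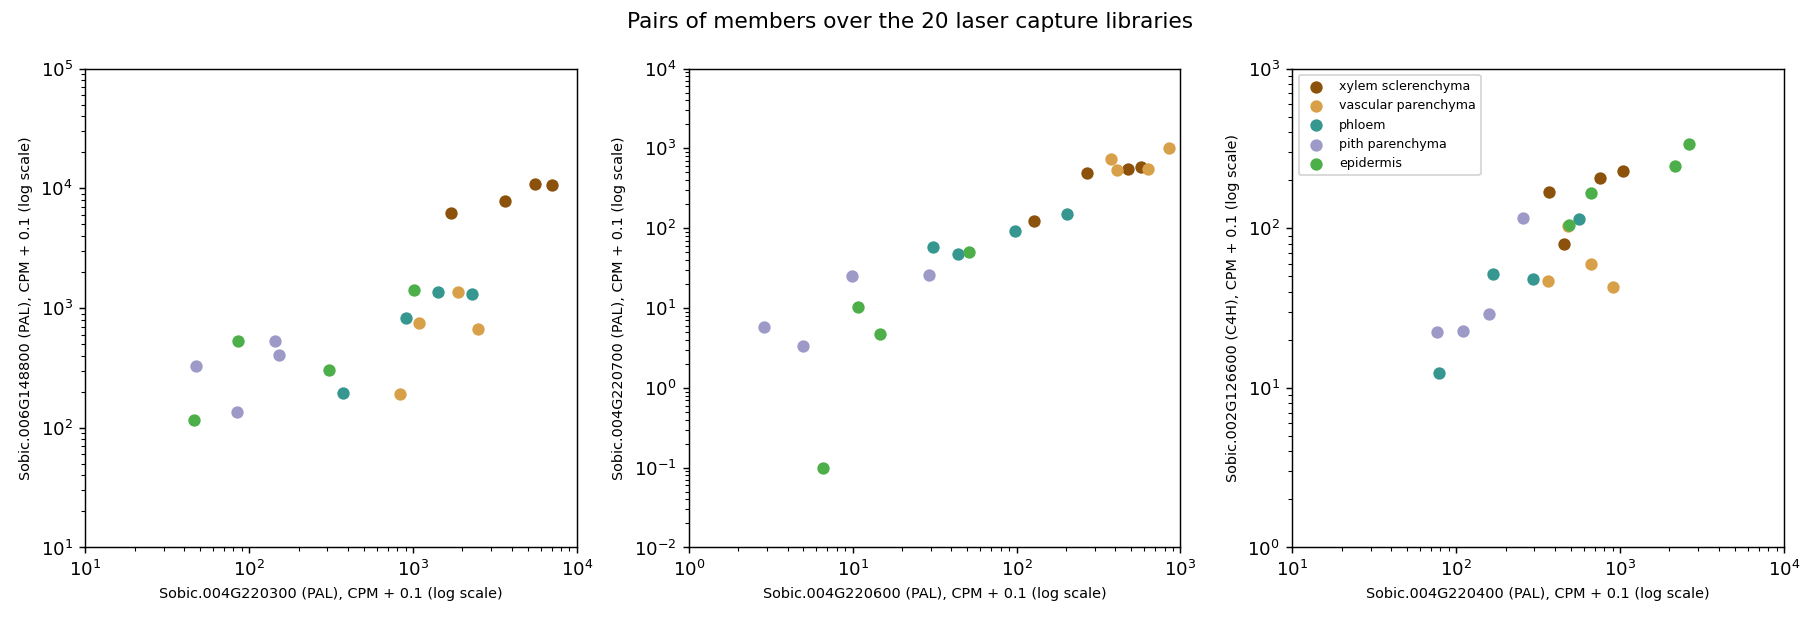
CPM plus 0.1 of 3 pairs of genes on log axes, 1 point per captured library coloured by type. Sobic.004G220600 and Sobic.004G220700 are high and low together apart from epidermis replicate 1, with 0 CPM of Sobic.004G220700, and Sobic.004G220400 and the C4H gene Sobic.002G126600 are both highest in epidermis replicate 4.

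Correlations between genes over the 20 captured libraries followed these arrangements only in part and are descriptions only. Across arrangements, Sobic.004G220300 had Pearson correlations of 0.835 with Sobic.004G220600 and 0.840 with Sobic.004G220700. The C4H gene Sobic.003G337400 gave 0.590 with Sobic.004G220400 and 0.460 with Sobic.006G148800. Sobic.004G220300 and Sobic.006G148800 had a Pearson correlation of log2 CPM of 0.806 and a Spearman correlation of 0.844. Both genes had fractional counts in all 24 libraries, so shared reads may enter these values. The PAL gene Sobic.004G220400 correlated with the C4H gene Sobic.002G126600 at 0.843 (Spearman 0.776) and with its chromosome 4 neighbour Sobic.004G220300 at 0.396 (Spearman 0.367). Sobic.006G148800 and Sobic.002G126600 gave 0.416 (Spearman 0.353). Outside the 10 genes, the patterns most like Sobic.006G148800 were those of Sobic.002G072200 (Pearson 0.926, Spearman 0.841) and Sobic.004G259366 (0.915 and 0.871), and both had their highest mean in xylem sclerenchyma. The gene most like Sobic.002G126600 was Sobic.007G047300 (Pearson 0.869, Spearman 0.875), with its highest mean in epidermis. The next was Sobic.010G083500 (0.859 and 0.863), with its highest mean in xylem sclerenchyma.

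As a total, the 8 PAL genes took 1.48 ± 0.505% of all counts in xylem sclerenchyma, 0.419 ± 0.0552% in vascular parenchyma, 0.262 ± 0.147% in phloem, 0.0634 ± 0.0190% in pith parenchyma, 0.248 ± 0.200% in epidermis and 0.333 ± 0.0536% in whole stem (SD, n = 4 each). Per library, xylem sclerenchyma ran from 0.858% to 1.95% and the highest library of any other group, epidermis replicate 4, was at 0.516%. The 2 C4H genes together had 269.8 ± 116 CPM in xylem sclerenchyma, 75.8 ± 26.2 in vascular parenchyma, 63.5 ± 39.3 in phloem, 50.8 ± 44.6 in pith parenchyma, 289.8 ± 124 in epidermis and 149 ± 40.7 in whole stem (SD, n = 4 each). Summed C4H was thus high in both xylem sclerenchyma and epidermis, and summed PAL in xylem sclerenchyma.

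**Figure D3:**
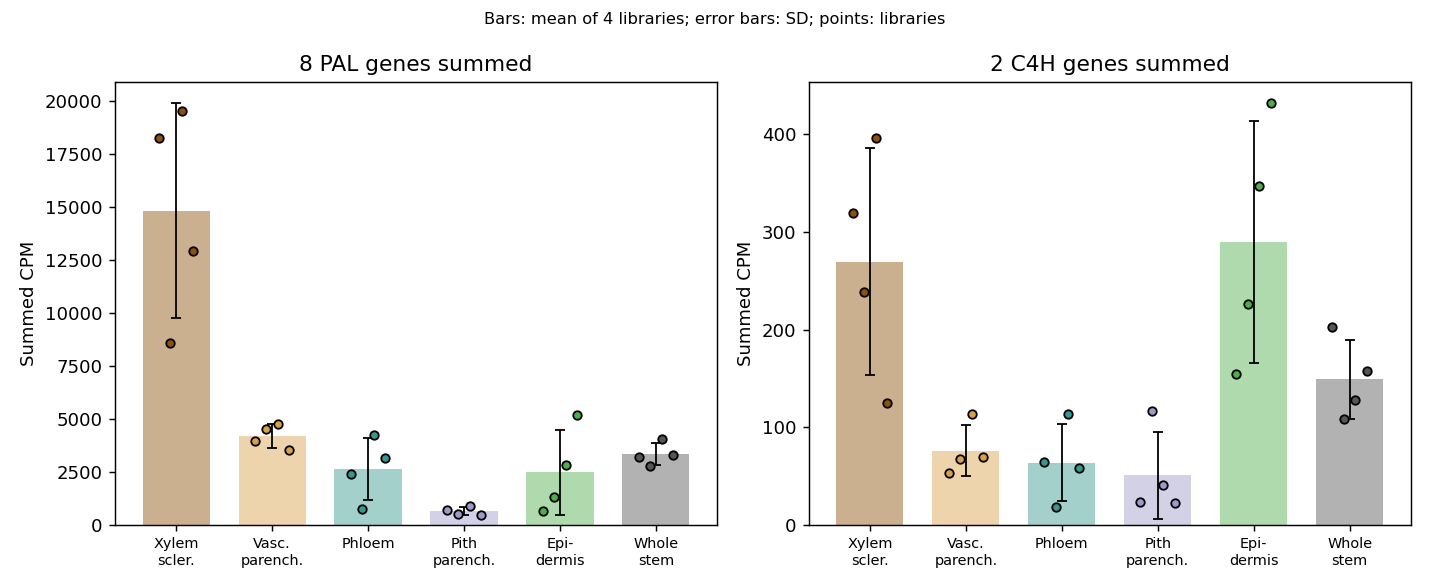
Summed CPM of the 8 PAL genes and of the 2 C4H genes by group; bars are means of 4 libraries, error bars SD and points single libraries. Summed PAL averaged 14819 CPM in xylem sclerenchyma and 2482 CPM in epidermis, while summed C4H averaged 269.8 and 289.8 CPM in these types.

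The number of PAL counts per C4H count was compared between libraries only, since it was not corrected for gene length. It was 61.5 ± 29.5 in xylem sclerenchyma, 58.6 ± 14.8 in vascular parenchyma, 42.4 ± 7.67 in phloem, 18.9 ± 10.3 in pith parenchyma, 7.52 ± 3.36 in epidermis and 23.5 ± 6.76 in whole stem (SD, n = 4 each). Epidermis ran from 4.25 to 12 and the 12 vascular libraries from 35.9 to 104, with no overlap. Pith parenchyma ran from 4.45 to 28.9 and overlapped with epidermis and whole stem.

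The makeup of the PAL counts, likewise not corrected for length, also varied by type. Sobic.006G148800 made up 61.8 ± 7.81% of PAL counts in xylem sclerenchyma, 17.2 ± 10.3% in vascular parenchyma, 33.8 ± 7.15% in phloem, 54.3 ± 19.5% in pith parenchyma, 24.1 ± 13.0% in epidermis and 47.7 ± 6.57% in whole stem (SD, n = 4 each). Sobic.004G220400 made up 63.5 ± 14.3% in epidermis, from 51.0% to 77.5% by library, and 4.31 ± 0.752% in xylem sclerenchyma. In the other groups its mean share was 10.4% to 25.0%, and its highest library outside epidermis was pith parenchyma replicate 2 at 49.3%. Sobic.004G220300 was on average the largest part in phloem, at 47.0 ± 7.04%, and in vascular parenchyma, at 36.2 ± 13.1%. Sobic.004G220600 and Sobic.004G220700 made up 14.3 ± 7.44% and 17.4 ± 7.49% in vascular parenchyma, with means of 4.58% and 4.27% in phloem and below these in all other groups. In epidermis replicates 1 and 2, with few detected genes, Sobic.004G220400 was the largest part as in replicates 3 and 4.

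**Figure D4:**
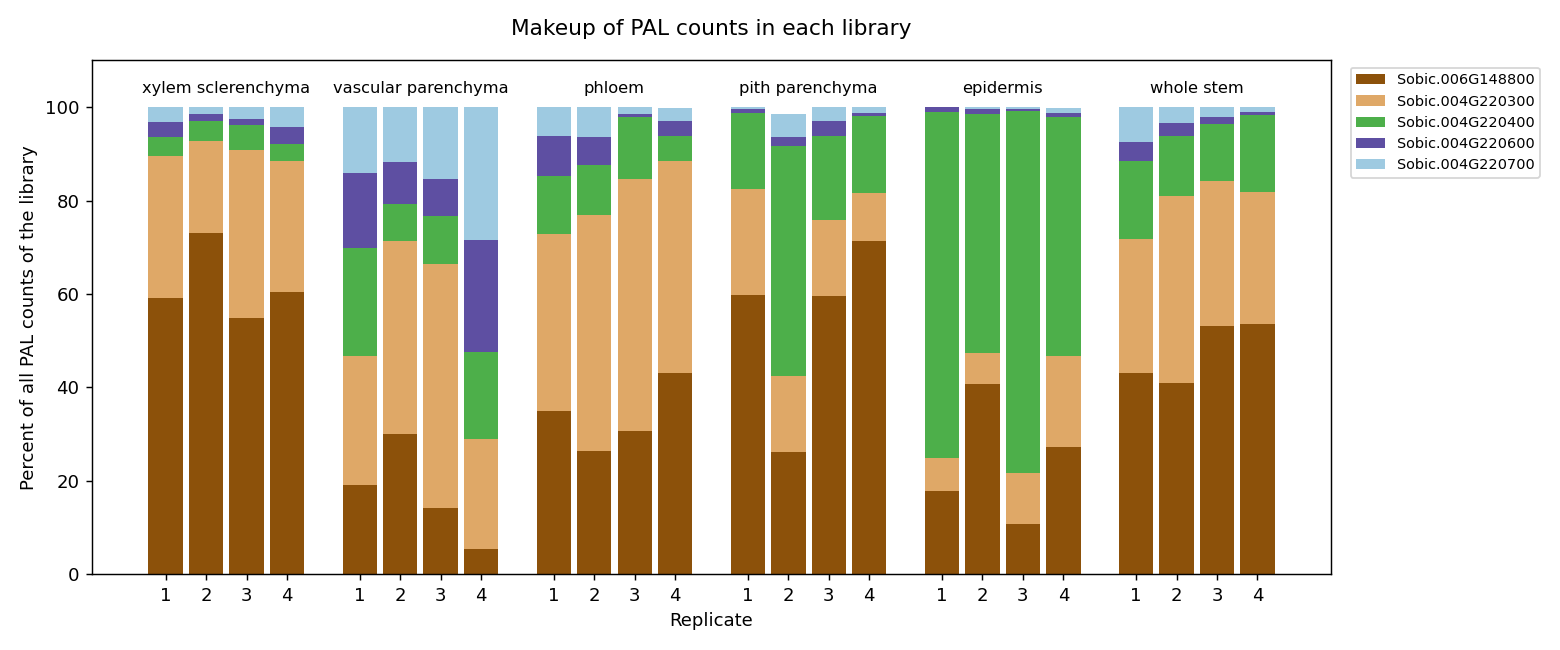
Percent of each library's PAL counts that came from each of the 5 abundant PAL genes, for the 24 libraries in 6 groups. Sobic.006G148800 is the largest part in every xylem sclerenchyma library and Sobic.004G220400 in every epidermis library.

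How reads were divided between close copies bears on the PAL genes of chromosomes 4 and 6. Estimated counts can be fractional where a read matches more than one gene. All 24 libraries had one for Sobic.004G220300 and Sobic.006G148800, 23 had one for Sobic.004G220600 and Sobic.004G220700 and 18 for Sobic.004G220400, and both C4H genes had whole counts in all 24. The level of a single PAL gene is therefore uncertain where reads match a close copy. In epidermis replicate 1 the only PAL genes with fractional counts were Sobic.004G220300 and Sobic.006G148800, at 448.29 and 1132.71. Reads may thus be divided between genes of different chromosomes, which sums within a chromosome do not undo. With the 5 chromosome 4 genes summed to 1 feature in the same edgeR fit, the sum was called in xylem sclerenchyma, vascular parenchyma and phloem against pith parenchyma (log2 differences 4.51, 3.77 and 2.61) and in pith parenchyma against epidermis (-2.88). It was not called between any vascular type and epidermis, where the log2 differences were 1.63, 0.89 and -0.27. The chromosome 6 sum gave the calls of Sobic.006G148800.

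Over all 10 pairs of types, 20 of 80 tests of these genes were called at an edgeR adjusted p under 0.05 and a log2 difference of at least 1 in size. The background differed by pair and counts calls in both directions. Xylem sclerenchyma minus pith parenchyma called 5 of 8 genes, all higher, beside 2.89% of all genes tested in either direction, and xylem sclerenchyma minus epidermis 4, all higher, beside 5.6%. Vascular parenchyma called 4 against pith parenchyma, beside 7.17%, and 2 against epidermis, beside 10.2%, all higher. Phloem called 2 against pith parenchyma, both higher, beside 5.52%, and 1 against epidermis, lower, beside 8.59%. Pith parenchyma minus epidermis called 1, lower, beside 2.55%.

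Within the vascular types few calls were made by edgeR. The shares of all genes count edgeR calls at the adjusted p and size. No such share was taken for unadjusted p-values, DESeq2 or limma voom, so those counts have no background here. Xylem sclerenchyma minus phloem called 1 gene, Sobic.006G148800, beside 0.487% of all genes, with 7 genes at an unadjusted p under 0.05. DESeq2 also called 1 there and limma voom 6, and edgeR with no filter on low counts called 0. Xylem sclerenchyma minus vascular parenchyma called 0 by edgeR, beside 0.0308%, with 3 genes at an unadjusted p under 0.05, 1 called by DESeq2 and 2 by limma voom with quality weights. Vascular parenchyma minus phloem also called 0 by edgeR, beside 0.174%, with 3 at an unadjusted p under 0.05. DESeq2 and limma voom each called 2 there, Sobic.004G220600 and Sobic.004G220700, whose log2 differences were 2.76 (SE 0.76) and 3.18 (SE 1.09).

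The 3 vascular types together were compared with pith parenchyma and epidermis, 12 libraries against 8. Of the 8 genes tested, 4 were called, all PAL genes and all higher in the vascular types, beside 17.5% of all genes called in either direction. The median log2 difference was 1.24 over the 8 genes and 0.0641 over all genes. Sobic.004G220700 had a log2 difference of 4.29 (SE 0.79, edgeR adjusted p = 0.000973) and Sobic.004G220600 of 4.15 (SE 0.56, edgeR adjusted p = 3.76e-05). Sobic.004G220300 had 3.42 (SE 0.57, edgeR adjusted p = 0.000398) and Sobic.006G148800 had 2.03 (SE 0.46, edgeR adjusted p = 0.0044). All 4 calls held in all 20 omissions of 1 library. Without epidermis replicate 4 the log2 differences were 5.24 for Sobic.004G220700, 4.74 for Sobic.004G220600 and 4.17 for Sobic.004G220300. The epidermis-high PAL gene Sobic.004G220400 was at 0.06 (SE 0.38, edgeR adjusted p = 0.971). The C4H genes were at -0.19 (SE 0.39) and 0.45 (SE 0.86), with edgeR adjusted p-values of 0.831 and 0.818. Of the 3 vascular types taken singly, only xylem sclerenchyma was called above pith parenchyma or epidermis in Sobic.006G148800. In vascular parenchyma its log2 differences were 1.203 from pith parenchyma and 0.36 from epidermis (edgeR adjusted p-values 0.327 and 0.827). In phloem they were 1.38 and 0.54 (edgeR adjusted p-values 0.255 and 0.722). In Sobic.004G220300, vascular parenchyma and phloem were not called above epidermis (2.13 and 1.66, edgeR adjusted p-values 0.091 and 0.199). Phloem was not called above epidermis in Sobic.004G220600 (2.07, edgeR adjusted p = 0.087) or Sobic.004G220700 (2.29, edgeR adjusted p = 0.194). Nor was it called above pith parenchyma in Sobic.004G220700 (2.56, edgeR adjusted p = 0.169). The other such pairs of these 3 genes were called.

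In xylem sclerenchyma, phloem and epidermis, replicates 1 and 2 had totals of 2769555 to 10516417 counts and replicates 3 and 4 of 27471101 to 38880291 counts, so the same contrast was fitted within each set. Sobic.004G220300 gave log2 differences of 4.15 within replicates 1 and 2 and 3.49 within replicates 3 and 4, Sobic.004G220600 5.09 and 3.61, and Sobic.004G220700 5.60 and 4.04, all called by edgeR. Sobic.006G148800 gave 2.55, called, and 1.66, not called (edgeR adjusted p = 0.125). Within either set, with 2 libraries per type, 2 genes differed across the types and 6 or 2 pair tests were called.

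Each captured type was then set against whole stem. In bulk tissue, fewer cells of a type and less RNA per cell cannot be told apart. Whole stem also differed from all captured types in having had no laser capture, which cannot be told apart from cell type. Each fit held 8 libraries and tested 7 of the 10 genes. The median log2 difference of all genes lay between -0.31 and -0.06 in these 5 fits.

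In xylem sclerenchyma 4 of 7 genes were higher than in whole stem, beside 9.32% of all genes called (409 higher, 1444 lower). The median log2 difference of the 7 was 2.26. Sobic.006G148800 was 6.10-fold higher (log2 difference 2.61, SE 0.34, edgeR adjusted p = 0.00979), in all 8 omissions of 1 library and with no overlap. Sobic.004G220300 was 4.79-fold higher (2.26, SE 0.46, edgeR adjusted p = 0.0155), a call lost without whole stem replicate 1, 2 or 4. The C4H gene Sobic.003G337400 was higher by a log2 difference of 2.26 (SE 0.49, edgeR adjusted p = 0.0204), lost without whole stem replicate 1, 2 or 3. Sobic.004G220600 was 5.50-fold higher (2.46, SE 0.62, edgeR adjusted p = 0.0392), lost without xylem sclerenchyma replicate 1 or 4 or whole stem replicate 2, 3 or 4 or with the set of replicates as a covariate, and not made by limma voom. The count was 1 without whole stem replicate 2, 2 without whole stem replicate 3 or 4, and 6 without xylem sclerenchyma replicate 2.

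In vascular parenchyma 2 of 7 genes were higher than in whole stem, beside 19.7% of all genes called (1736 higher, 2163 lower). They were Sobic.004G220600, 9.10-fold higher (log2 difference 3.19, SE 0.56, edgeR adjusted p = 0.00432), and Sobic.004G220700, 7.35-fold higher (2.88, SE 0.53, edgeR adjusted p = 0.00524). In both genes the 4 vascular parenchyma libraries lay above all whole stem libraries, and both calls held in all 8 omissions. Sobic.006G148800 was at -0.95 (SE 0.50, edgeR adjusted p = 0.242) in this comparison. Phloem called 0 of 7 genes by edgeR, beside 13.4% of all genes. None had an unadjusted p under 0.05, and DESeq2 and limma voom called 0. Without phloem replicate 3 edgeR called 1, the C4H gene Sobic.002G126600.

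Pith parenchyma had 3 of 7 genes lower than whole stem, beside 4.58% of all genes called (42 higher, 821 lower). Sobic.004G220300 was 9.47-fold lower (log2 difference -3.24, SE 0.39, edgeR adjusted p = 0.0184), Sobic.006G148800 4.39-fold lower (-2.14, SE 0.43, edgeR adjusted p = 0.0255) and Sobic.004G220400 3.10-fold lower (-1.63, SE 0.35, edgeR adjusted p = 0.0333). In these genes all pith parenchyma libraries lay below all whole stem libraries. By edgeR the count was 0 without any 1 of the whole stem libraries, 1 without pith parenchyma replicate 1 and 2 without pith parenchyma replicate 4. DESeq2 called 5 genes. With the set of replicates as a covariate, Sobic.004G220400 was not called.

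In epidermis 1 of 7 genes was higher than in whole stem, beside 12.6% of all genes called (682 higher, 1811 lower). It was the C4H gene Sobic.003G337400, 3.66-fold higher (log2 difference 1.87, SE 0.43, edgeR adjusted p = 0.0185), with no overlap. The call was lost without epidermis replicate 3 and without whole stem replicate 1, 2 or 3. Sobic.004G220400 had a log2 difference of 1.82 (SE 0.56, edgeR adjusted p = 0.0736), and DESeq2 and limma voom called it. Without epidermis replicates 1 and 2, edgeR called 3 genes, Sobic.004G220400 and both C4H genes. The count was 3 without epidermis replicate 1 alone and 2 without replicate 2 alone. Without epidermis replicate 4 it was 4, with Sobic.004G220300, Sobic.004G220600 and Sobic.006G148800 lower than in whole stem beside the higher Sobic.003G337400.

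**Figure D5:**
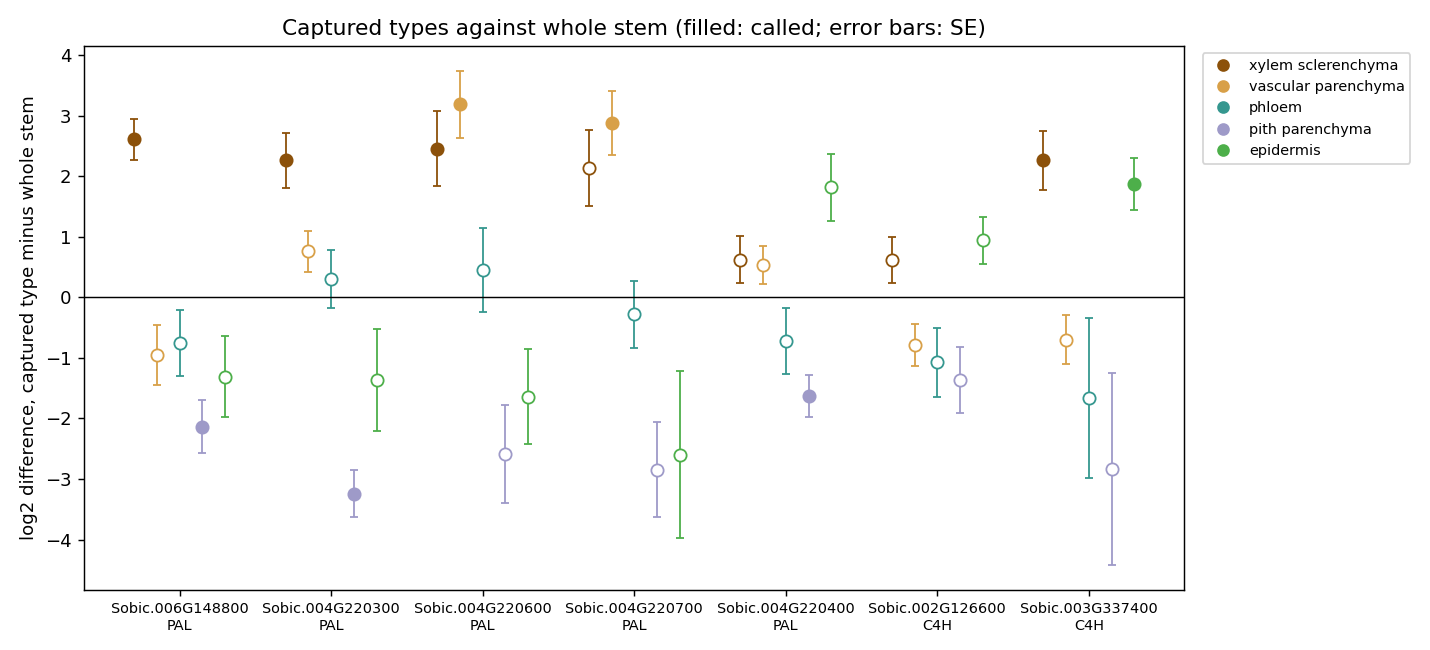
Log2 difference of each captured type minus whole stem for 7 genes, with its SE; filled points were called at an edgeR adjusted p under 0.05 and a size of at least 1. Xylem sclerenchyma and vascular parenchyma have the called increases in PAL genes, and pith parenchyma the called decreases.

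A list of 8 further identifiers, drawn up from general knowledge of the sorghum monolignol route downstream of C4H, was followed in the same fits. The files pair them with no products, so they are given by count and identifier. In contrasts, the shares of all genes set beside them count calls in both directions. All 8 differed across the captured types in edgeR's F test, beside 16% of all genes, with adjusted p-values from 0.000146 to 0.0230. All 8 were higher in xylem sclerenchyma than in pith parenchyma, beside 2.89% of all genes. In vascular parenchyma 7 were higher than there, beside 7.17%, and in phloem 5, beside 5.52%. Against epidermis 1 of 8, Sobic.001G196300, was higher in each of xylem sclerenchyma, vascular parenchyma and phloem, beside 5.6%, 10.2% and 8.59%, with median log2 differences of 2.02, 1.09 and 0.25. Pith parenchyma had 4 of 8 lower than epidermis, beside 2.55%. In the contrast of the vascular types with the mean of pith parenchyma and epidermis, 7 of 8 were higher, beside 17.5%, with a median log2 difference of 2.10. Against whole stem, 6 of 8 were higher in xylem sclerenchyma, beside 9.32%, 4 in vascular parenchyma, beside 19.7%, and 1 was lower in pith parenchyma, beside 4.58%. In phloem and epidermis 0 of 8 were called against whole stem, beside 13.4% and 12.6%, with median log2 differences of 0.76 and 0.29.

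Of the 8, Sobic.001G196300 had 189.9 ± 105 CPM in xylem sclerenchyma, 157 ± 86.2 in vascular parenchyma and 81.8 ± 41.5 in phloem, against 0.867 ± 1.15 in pith parenchyma and 0.142 ± 0.284 in epidermis (SD, n = 4 each). Sobic.007G047300, whose pattern was the most like that of the C4H gene Sobic.002G126600, had its highest mean in epidermis, at 5571 ± 3739.7 CPM, and 4531 ± 1079.6 CPM in xylem sclerenchyma (SD, n = 4 each). It was the one identifier of the 8 that was not called between the vascular types and the other types. Epidermis thus had high means of Sobic.004G220400, both C4H genes and Sobic.007G047300, while Sobic.001G196300 was at or near the floor there.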

How the data were processed

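Libraries were made with a full-length cDNA amplification kit (SMART-Seq v4 PLUS) and read as single ends of 150 bp, per the labels' protocols, which mention no molecular identifiers. The authors deposited expected counts per gene with no normalization, and the submitters' processing notes name FastQC, Salmon and alevin. The sources used here give no genome build, annotation or tool version. The share of fractional values in the table was 10.5%, and counts were rounded before the tests. No sequence or position is given, since the reference table supplied could not be paired with the identifiers.

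CPM was computed from deposited counts and library totals. Tests ran in R 4.3.3 with edgeR 4.0.16 (filterByExpr, TMM, robust quasi-likelihood tests, Benjamini-Hochberg adjustment over all genes), and were also run on simulated data. The share of simulated differences recovered is not given here, so a call not made does not show equal levels. SE was the log2 difference divided by the square root of F. Calls in contrasts needed an adjusted p under 0.05 and a log2 difference of at least 1 in size. For correlations, 2 was the prior count of log2 CPM. DESeq2 1.42.0, limma 3.58.1 voom, RLE scaling, no filter, a replicate block, sets of replicates, omitted libraries and summed copies were alternatives. All 10 members were named, with the 2 genes most correlated with the most abundant PAL and C4H gene. Members and lists were chosen with earlier results of these data known. No library pair within a group agreed within sampling noise. The labels do not tie replicate numbers to plants, so p-values measure the spread between libraries, which may be partly technical.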

Additional observations from a re-analysis of the deposited data

Results flagged for a closer look

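In 56 group values of the 10 genes whose highest library exceeded 3 counts, 1 of the 4 libraries stood far from the other 3 in 10 cases. Chance alone gives this in about 1 of 20 groups, and values near the floor give it readily. Above the floor, Sobic.002G126600 was at 116 CPM in pith parenchyma replicate 2, next to 29.1 CPM in the nearest library. Sobic.003G337400 was at 12 CPM in pith parenchyma replicate 3, next to 0.803 CPM, and at 21.1 CPM in vascular parenchyma replicate 2, next to 10.6 CPM. Sobic.006G148900 was at 9.83 CPM in epidermis replicate 4, 7.80 CPM in pith parenchyma replicate 2, 3.11 CPM in phloem replicate 4 and 1.11 CPM in whole stem replicate 1. Near the floor, Sobic.001G160500 was at 0.462 CPM in vascular parenchyma replicate 2 and 0.291 CPM in phloem replicate 3, and Sobic.004G220500 at 0.139 CPM in phloem replicate 4.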

How the results depend on the processing

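Over all called values of single genes and all alternatives fitted, 878 values kept their call and 186 lost it. These totals include the F tests across the types, which have no direction. Of the log2 differences, 0 changed sign. The 7 genes differing across the types became 2 within replicates 1 and 2, 2 within replicates 3 and 4, and 5 to 7 without 1 library. With close copies summed they became 4 of 5 features, all but Sobic.001G160500, which did not pass the filter on low counts. The 20 pair calls became 32 by DESeq2, 38 by limma voom, 6 and 2 within the replicate sets, 7 with copies summed, and 14 to 24 without 1 library. The 4 calls between the vascular and other types stayed at 4 without 1 library. With copies summed they became 2 of 5 features, the chromosome 4 and chromosome 6 PAL sums (log2 differences 2.19 and 2.02). Against whole stem, the 4 of xylem sclerenchyma became 1 with the replicate block, 0 within either set and 1 to 6 without 1 library. The 2 of vascular parenchyma became 0 within either set, 1 with copies summed and 2 to 3 without 1 library. The 0 of phloem became 1 without phloem replicate 3 and were 0 to 1 without 1 library. The 3 of pith parenchyma became 5 by DESeq2, 0 with the replicate block, 0 within either set and 0 to 4 without 1 library. The 1 of epidermis became 2 by DESeq2, 2 by limma voom, 0 with the replicate block, 3 without epidermis replicates 1 and 2, 0 within replicates 3 and 4, and 0 to 4 without 1 library. Fewer libraries or fewer features are part of the sets, omissions and sums; for the rest the cause was not tested. Deviations of same-numbered libraries correlated from -0.112 to 0.188 (median 0.00377 over 60 pairs, 7 above 0.1). No comparison had every pair above 0.1, so the numbers were not taken to pair libraries. The nearest was pith parenchyma with whole stem, above 0.1 for replicates 2, 3 and 4 and at -0.0843 for replicate 1. Of the 24 libraries, 11 correlated best with their own number, which does not settle whether the numbers pair libraries. With the block, 6 genes differed across the types, without Sobic.003G337400, and 16 pair calls were made. The pair calls lost were Sobic.006G148800 in xylem sclerenchyma minus phloem and Sobic.004G220600 in phloem minus pith parenchyma. Sobic.004G220400 and Sobic.004G220700 were lost in xylem sclerenchyma minus pith parenchyma. RLE scaling moved the median of all genes by 0.148 for phloem minus epidermis and by less than 0.1 elsewhere, and changed none of these counts. The 3 genes near the floor had few counts in most libraries, though Sobic.006G148900 had 328 counts in epidermis replicate 4. No differences are given for these genes beyond their levels and the single test of Sobic.006G148900 across types.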
